A study of Rattus norvegicus with 16 samples.

Results

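The 6 genes followed here through zinc deficiency and zinc recovery in the rat diencephalon were the insulin receptor *Insr*, the IGF1 receptor *Igf1r*, the insulin receptor substrate *Irs2*, the leptin receptor *Lepr*, and the adiponectin receptors *Adipor1* and *Adipor2*. Members were the probe sets, groups of short oligonucleotides that together read 1 transcript, whose only gene symbol in the platform's probe annotation was one of these 6 names. There were 16 such probe sets, 7 for *Lepr*, 3 for *Adipor2*, 2 each for *Insr* and *Igf1r*, and 1 each for *Irs2* and *Adipor1*, of 31042 on the array that were not controls; the named probe sets stood for 14217 genes in all. Only 6 of the 16, from 4 genes, reached the filter on low values, a mean log2 signal over all arrays of 7.351 (a signal of 163). The other 10, which included both *Insr* and all 7 *Lepr* probe sets, were dimmer than the median probe set.

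Each of the 16 arrays held the RNA of the whole diencephalon of 1 male Sprague-Dawley rat, with 4 rats in each of 4 groups. ZR rats ate a zinc-deficient diet (0.6 mg zinc per kg) for 10 days from 5 weeks of age and then a fixed daily ration of 13 g of zinc-sufficient diet (30 mg per kg) for 6 days. ZRPF rats had been pair-fed the zinc-sufficient diet for the first 10 days and then had the same 6 days of ration. ZD rats ate the zinc-deficient diet for 10 days, and PF rats were pair-fed the zinc-sufficient diet over those 10 days. Rats of every group were 5 weeks old at the start. All 4 groups had been offered 300 mM NaCl in a preference test, and all were food-limited, as zinc-deficient rats eat less and their controls were matched to them. The submitters chose rats near the average in body weight, plasma zinc and salt preference for the arrays, so the spread between these rats is not that of every rat in a group. The tissue was bulk, so fewer cells of a type and less RNA per cell cannot be told apart.

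Insulin and IGF1 bind related receptor tyrosine kinases, *Insr* and *Igf1r*, which pass their signal through the adaptor Irs2 to phosphatidylinositol 3-kinase and Akt, and Akt in turn keeps FoxO transcription factors out of the nucleus. The leptin receptor acts through Jak2 and Stat3, and in the hypothalamus it is the main route by which fat stores restrain feeding. *Adipor1* and *Adipor2* are membrane receptors for adiponectin that signal through AMPK and ceramide breakdown, and Irs2 is shared by insulin and leptin signalling in hypothalamic neurons. Zinc is needed to store insulin and is known to enhance insulin signalling in cells, and poor appetite is a hallmark of zinc deficiency in rats.

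The promoters of 5 of the 6 genes were found in the RefSeq promoter table (build GRCr8), as windows of 300 bases from 250 before to 50 after the start it uses. The *Lepr* and *Igf1r* stretches are shown because their windows differ in CpG content. These were also the 2 genes with a probe set, the brightest of each, whose signal separated the 16-day from the 10-day arrays. Their other probe sets did not. The *Insr* and *Adipor1* stretches are shown because they hold the letters GTAAACA, the core that FoxO factors bind. In the first 2, capitals mark CpG; in the other 2, they mark GTAAACA or its reverse complement.
Lepr, chr5:121409485-121409734, plus strand, the 250 bases before the start: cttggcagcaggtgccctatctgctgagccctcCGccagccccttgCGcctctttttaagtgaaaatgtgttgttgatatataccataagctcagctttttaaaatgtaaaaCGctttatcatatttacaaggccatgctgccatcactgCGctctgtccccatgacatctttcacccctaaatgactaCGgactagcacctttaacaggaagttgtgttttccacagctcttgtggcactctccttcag
Igf1r, chr1:130959747-130959786, plus strand, the 40 bases before the annotated gene: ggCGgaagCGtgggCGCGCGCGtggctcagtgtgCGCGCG
Insr, chr12:6128886-6128914, minus strand, positions -111 to -83 from the start: acgggccgcgtTGTTTACtggccggagtc
Adipor1, chr13:48411751-48411779, plus strand, positions -179 to -151 from the start: aaaggtccaccGTAAACAtttccggcccc

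The *Lepr* stretch lies just outside the annotated gene (121409735 to 121593201 on chromosome 5). The starts used for *Insr*, *Igf1r* and *Adipor1* lie 472, 210 and 492 bases inside the annotated gene, so the *Insr* and *Adipor1* stretches fall within it. The *Lepr* window held 5 CpG in 300 bases at a GC content of 47.7%, against 50 CpG and 78.0% for *Igf1r*, 34 and 72.7% for *Adipor1*, and 28 and 71.3% for *Insr*. Over all 33469 promoters of the table the median was 7 CpG (quartiles 3 and 19) and 51.7% GC, so *Lepr* lay near the middle and these other 3 above the upper quartile. The *Adipor2* window had 3 CpG and 37.3% GC, but its start lies 49162 bases inside the annotated gene, and it is not shown. GTAAACA on either strand occurred once each in *Insr* and *Adipor1*, in none of the other 3, and in 3.78% of all promoters. GGGCGG, the core bound by Sp1, occurred once in *Igf1r* and 2 times in *Adipor1* (33.1% of all promoters), and TTCNNNGAA, the core bound by STAT factors, in none of the 5 (8.87% of all). All 3 were searched on both strands, and a match is a description of the letters alone.

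*Igf1r*, the receptor for IGF1, was higher in the 16-day than in the 10-day experiment, and zinc status within each made no difference past the test. Probe set 1392492_at, the brighter of its 2, had signals of 697, 814, 779 and 854 in ZR rats and 797, 696, 716 and 837 in ZRPF rats. It had 556, 487, 526 and 608 in ZD rats and 523, 567, 647 and 660 in PF rats. Every 16-day array (696 to 854) lay above every 10-day array (487 to 660), a separation found in 7.73% of tested probe sets. The second, 1368123_at, had 463, 535, 447 and 611 in ZR rats, 526, 482, 495 and 534 in ZRPF rats, 337, 366, 328 and 382 in ZD rats, and 354, 424, 501 and 470 in PF rats. Here the ZR arrays again lay wholly above the ZD arrays, as groups did not overlap in that comparison for 19.5% of tested probe sets, whereas the ZRPF arrays overlapped those of PF.

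**Figure D1:**
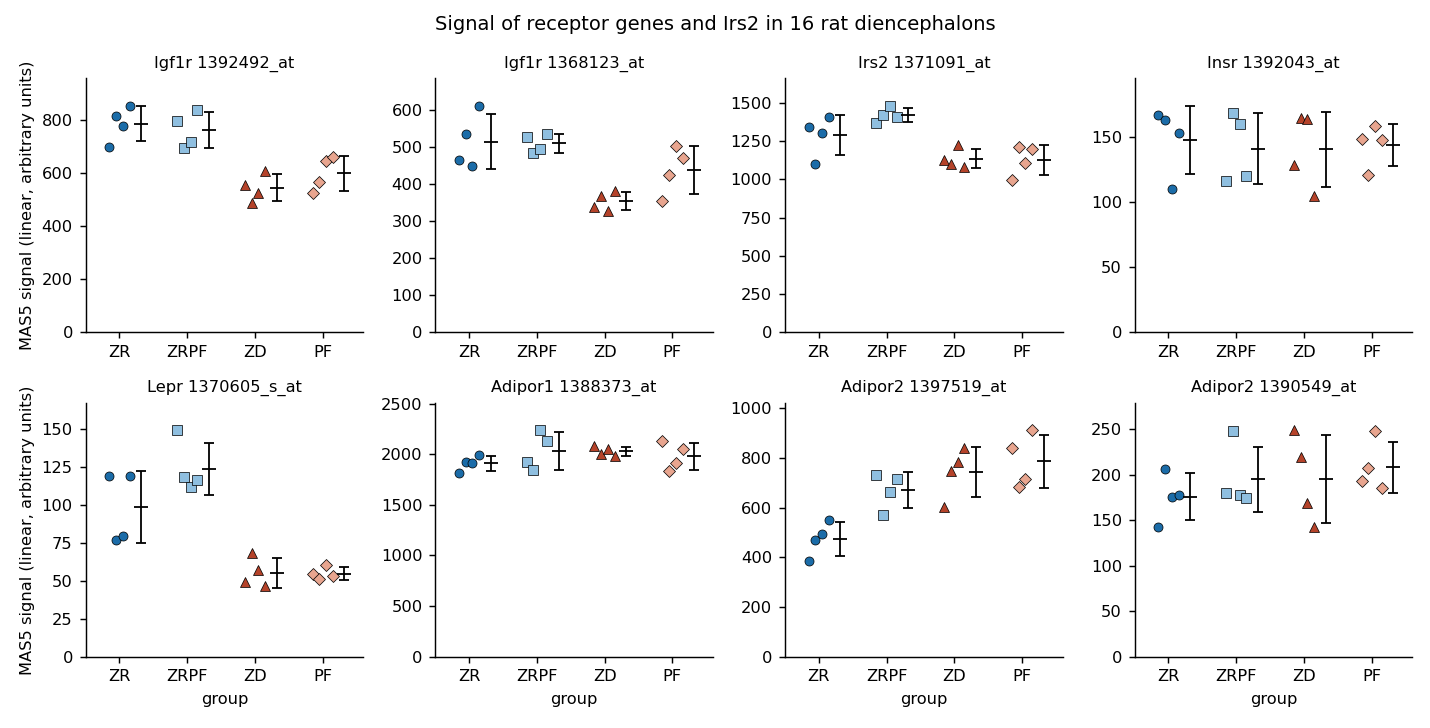
MAS5 signal (linear, arbitrary units) of 8 probe sets in every array, for ZR, ZRPF, ZD and PF rats; each point is 1 rat, and bars give the mean and SD (n = 4). *Igf1r* 1392492_at and *Lepr* 1370605_s_at lie higher in all 8 arrays of the 16-day experiment than in all 8 of the 10-day experiment, and *Adipor2* 1397519_at is lowest in ZR.

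ZR against ZD asked how rats given zinc after deficiency differed from rats still deficient. Both *Igf1r* probe sets were higher in ZR, by log2 0.53 ± 0.10 (SE; 1.44-fold) for 1392492_at and by 0.53 ± 0.12 (1.45-fold) for 1368123_at, with limma's adjusted p of 0.00134 and 0.00402. Of the 6 member probe sets tested, 3 were called in this comparison, 2 higher and 1 lower, where 17.3% of all tested probe sets were called (9.16% higher, 8.18% lower). ZRPF against PF set the pair-fed rats of the experiments, which had never been deficient, against each other. Probe set 1392492_at was higher in ZRPF by 0.35 ± 0.10 (1.27-fold, limma's adjusted p = 0.0225), and 1368123_at differed by 0.23 ± 0.12, which missed the threshold (adjusted p = 0.187). In that comparison 2 of the 6 were called, both higher, against 15.7% of all tested probe sets (9.50% higher, 6.15% lower). The call on 1392492_at ended when any one of rats PF 1, PF 2, ZRPF 2 or ZRPF 6 was left out, with differences of 0.29 to 0.32 and limma's adjusted p of 0.0592 to 0.0831. It also ended with median centring (0.26, adjusted p = 0.0692), with the choroid plexus marker mean as a covariate (0.32, 0.0915) and in rats 2, 4 and 6 alone (0.31, 0.104).

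These 2 comparisons set the 16-day against the 10-day experiment, so age, days of feeding, the ration and any run of arrays cannot be told apart from the group. The ratio of the 3' to the 5' actin control probe sets, a measure of RNA integrity and amplification, also separated them, at 4.15 to 4.59 in ZR and 4.14 to 5.59 in ZRPF against 2.59 to 3.19 in ZD and 2.82 to 3.31 in PF. The same ratio for Gapdh was 1.15 to 1.22 in ZR and 1.11 to 1.23 in ZRPF, against 1.03 to 1.11 in ZD and 1.07 to 1.10 in PF. With the actin ratio as a covariate, none of the member calls in either comparison held. The *Igf1r* differences in ZR against ZD were 0.41 ± 0.22 and 0.32 ± 0.25 (limma's adjusted p = 0.543 and 0.699). That of 1392492_at in ZRPF against PF was 0.22 ± 0.23 (limma's adjusted p = 0.847). The ratio did not overlap between the experiments, so this fit cannot separate the ratio from the experiment. Standard errors in ZR against ZD rose from 0.10 and 0.12, and few calls of any probe set were left, as given at the end. The same limit holds for this covariate in *Irs2*, *Lepr* and *Adipor2* below. Summed hypothalamus markers, of which 13 of the 17 on the array reached the filter, were 42400 to 48300 in ZR and 45500 to 50200 in ZRPF, against 30300 to 40200 in ZD and 32800 to 38500 in PF. *Ghrh*, *Sim1*, *Pomc* and *Otp* were the 4 below it. A sum of signals gives the brightest markers the most weight, and the rise did not hold for each marker. In ZR against ZD, 10 of the 13 were higher and 3 lower, with 4 called, all higher. The counts were the same in ZRPF against PF, and the median log2 difference was 0.30 in both. Thalamus markers (16 of 17 above the filter) summed to 41100 to 51400 in ZR, 42600 to 46300 in ZRPF, 38700 to 46300 in ZD and 43800 to 50000 in PF. The part of the hypothalamic share of the dissection in the *Igf1r* difference was not tested.

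**Figure D2:**
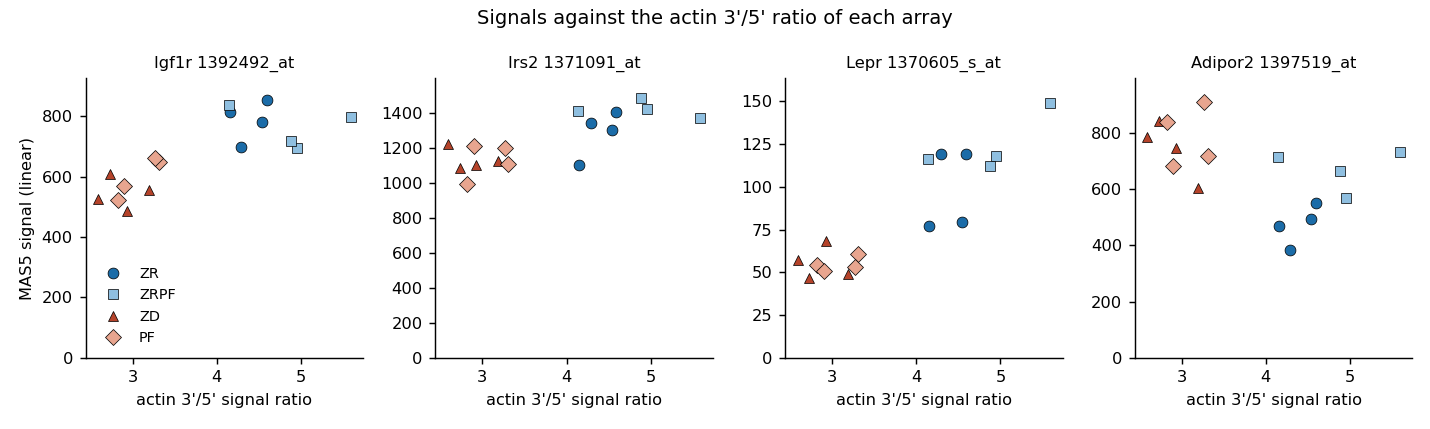
MAS5 signal (linear) of 4 member probe sets against the actin 3'/5' signal ratio of the same array; each point is 1 rat of ZR, ZRPF, ZD or PF. The ratio is above 4 in all 8 arrays of the 16-day experiment and at most 3.31 in the 10-day arrays, so that the higher *Igf1r*, *Irs2* and *Lepr* signals stand at the higher ratios.

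Within an experiment *Igf1r* gave no call. ZD against PF, which asks what zinc deficiency did beyond the lower food intake, gave -0.30 ± 0.12 for 1368123_at, with a 95% interval of -0.54 to -0.06. Its unadjusted limma p was 0.0188, its adjusted p 0.549, and the exact two-sided permutation p was 0.0857, where 4 arrays against 4 cannot give less than 0.0286. Probe set 1392492_at gave -0.14 ± 0.10 (95% interval -0.34 to 0.07). The ZD and PF arrays overlapped in all 6 tested member probe sets (4.19% of all tested probe sets had no overlap), and none was called, where 0% of all probe sets were called by limma and 1220 had an unadjusted p under 0.05. ZR against ZRPF, which asks whether anything of the deficiency outlasted 6 days of zinc, gave 0.05 ± 0.10 (-0.16 to 0.25) and 0.00 ± 0.12 (-0.24 to 0.25). None of the 6 was called there either, against 0.00644% of all (1 probe set, with 808 at an unadjusted p under 0.05). The test of whether the 2 changes differ gave 0.30 ± 0.16 for 1368123_at (limma's adjusted p = 0.756), with 0 of 6 members and 0% of all probe sets called and 1025 at an unadjusted p under 0.05.

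*Irs2*, the adaptor that carries insulin, IGF1 and leptin signals, was higher in the 16-day than in the 10-day pair-fed rats. Probe set 1371091_at had signals of 1369, 1423, 1482 and 1409 in ZRPF rats and 996, 1209, 1106 and 1199 in PF rats. The groups did not overlap, as for 21.4% of tested probe sets, and the difference was 0.34 ± 0.08 (SE; 1.26-fold, limma's adjusted p = 0.00851). It stayed past the threshold without any one of the 8 rats (0.28 to 0.37), but not with the actin ratio as a covariate (0.26 ± 0.19, adjusted p = 0.773). The signals were 1343, 1102, 1303 and 1407 in ZR rats and 1127, 1101, 1224 and 1083 in ZD rats. ZR against ZD gave 0.18 ± 0.08 (adjusted p = 0.135); without rat ZR 10 it gave 0.25 and passed (adjusted p = 0.038). ZR against ZRPF gave -0.15 ± 0.08 (95% interval -0.32 to 0.02, exact permutation p = 0.0571), and ZD against PF gave 0.01 ± 0.08 (-0.16 to 0.18).

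*Insr*, the insulin receptor, was read only by dim probe sets. Probe set 1392043_at had signals of 167, 163, 110 and 153 in ZR rats and 116, 169, 160 and 120 in ZRPF rats. It had 129, 165, 164 and 105 in ZD rats and 149, 121, 159 and 148 in PF rats. All 4 groups overlapped, with mean log2 signals of 7.19 ± 0.28 in ZR, 7.12 ± 0.28 in ZRPF, 7.11 ± 0.31 in ZD and 7.16 ± 0.17 in PF (SD, n = 4). Probe set 1369051_at ran from 26.7 to 53.9 in ZR, 36.9 to 73.9 in ZRPF, 46.3 to 66.4 in ZD and 33.4 to 64.6 in PF, again with overlap between all groups.

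The brightest leptin receptor probe set also separated the experiments, at low signals. Probe set 1370605_s_at, whose suffix marks probes that may match more than 1 transcript, had 119, 76.9, 79.4 and 119 in ZR rats and 149, 118, 112 and 116 in ZRPF rats. It had 48.9, 68.3, 57.4 and 46.7 in ZD rats and 54.4, 50.9, 60.6 and 53 in PF rats. All 8 arrays of the 16-day experiment (76.9 to 149) thus exceeded all 8 of the 10-day experiment (46.7 to 68.3), which was true of 4.73% of all probe sets that were not controls. ZRPF exceeded PF by log2 1.17 (2.25-fold) and ZR exceeded ZD by 0.82 (1.76-fold), each with an exact permutation p of 0.0286, the smallest that 4 against 4 can give. In a limma fit of all 31042 probe sets without the filter, these differences had a standard error of 0.21 and adjusted p of 0.00151 and 0.019, where 7.92% and 8.31% of probe sets were called. With an offset of 32 added to every signal before the log, which damps dim probe sets, they were 0.84 and 0.57. ZR lay 0.35 below ZRPF with overlap (exact permutation p = 0.286), and ZD and PF both averaged 5.77 on the log2 scale. With the actin ratio as a covariate in the fit without the filter, ZRPF against PF and ZR against ZD gave 0.82 ± 0.49 and 0.49 ± 0.46 (limma's adjusted p = 0.771 and 0.827). The choroid plexus marker mean, over the 10 markers at or above the filter, was also used, since choroid plexus is known to hold leptin receptors. With it the 2 comparisons gave 1.22 ± 0.25 and 0.82 ± 0.21 (limma's adjusted p = 0.00782 and 0.0232). That mean is an indirect measure of choroid plexus, and the part of that tissue in the *Lepr* difference was not tested. Summed hypothalamus markers, given above, also separated the experiments, and their part in the *Lepr* difference was not tested.

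**Figure D3:**
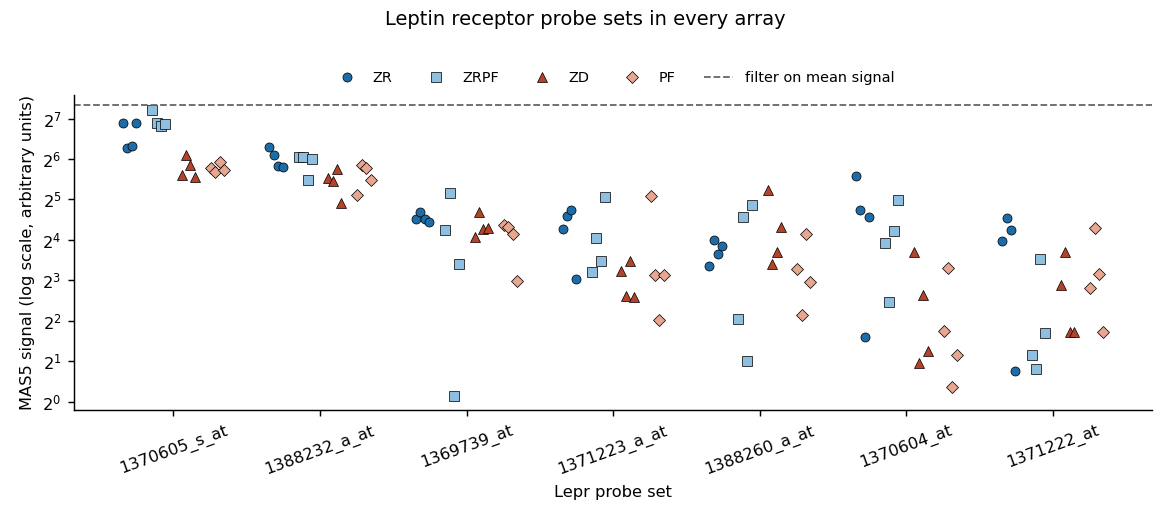
MAS5 signal (log scale) of the 7 *Lepr* probe sets in every array of ZR, ZRPF, ZD and PF; each point is 1 rat, and the dashed line is the filter on the mean signal, 163. All 7 lie below it, and 1370605_s_at is the only one in which the 8 arrays of the 16-day experiment lie above all others.

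The other 6 *Lepr* probe sets did not show that separation. The next brightest, 1388232_a_at, had 78.6, 68.3, 56.9 and 56 in ZR rats, all above the 46.5, 43.8, 53.6 and 30 of ZD rats, a log2 difference of 0.60 (exact permutation p = 0.0286; limma's adjusted p without the filter 0.185). Its signals of 65.8, 66.8, 44.3 and 64.2 in ZRPF rats overlapped the 34.6, 58.1, 54.6 and 44.8 of PF rats. Probe set 1370604_at, with a mean signal of only 7.71, had 47.9, 26.7, 3.01 and 23.6 in ZR rats and 15.1, 5.55, 18.5 and 31.6 in ZRPF rats. It had at most 12.9 in ZD and 9.84 in PF rats. Neither difference passed, with exact permutation p of 0.0571 in ZRPF against PF and 0.143 in ZR against ZD. In the limma fit without the filter their adjusted p were 0.133 and 0.193. The remaining 4 never exceeded 37.7 in any array, and the 16-day arrays overlapped the 10-day arrays in each. Which forms of the receptor the 7 probe sets read was not analysed here. *Leprot*, a gene named for the transcript that overlaps the leptin receptor gene, differed by 0.01 ± 0.10 in ZRPF against PF and by -0.02 ± 0.10 in ZR against ZD (1388725_at).

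*Adipor2*, one of the adiponectin receptors, was called lower in ZR than in ZD by its brightest probe set alone. This probe set, 1397519_at, had signals of 384, 471, 494 and 551 in ZR rats and 605, 746, 786 and 842 in ZD rats. The difference was -0.65 ± 0.13 (SE; 0.637-fold, limma's adjusted p = 0.00207), with no overlap. It was past the threshold without any one of the 8 rats (-0.75 to -0.55), and with the actin ratio as a covariate it was -0.54 ± 0.29 (adjusted p = 0.538). ZRPF rats had 733, 569, 665 and 716 and PF rats 839, 683, 717 and 912, a difference of -0.23 ± 0.13 that missed the threshold (adjusted p = 0.242). It was the only member probe set whose ZR and ZRPF arrays were wholly apart: the highest ZR signal, 551, lay below the lowest of ZRPF, 569. The other *Adipor2* probe sets overlapped there. Groups were apart in this comparison for 2.98% of tested probe sets, near the share that chance gives with 4 against 4 (0.0286). That difference was -0.50 ± 0.13 (95% interval -0.77 to -0.24, 0.705-fold), which ranked 13 by p among 15521 probe sets (unadjusted limma p = 0.000947, exact permutation p = 0.0286) and did not pass after adjustment (0.927). ZD against PF gave -0.08 ± 0.13 (-0.35 to 0.19), and the difference between the 2 changes was -0.42 ± 0.18 (limma's unadjusted p = 0.0313, adjusted 0.747).

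Summed markers of meningeal and mural cells (11 of 15 on the array above the filter) were also lower in ZR than in ZD, at 4720 to 5170 against 5800 to 9360. The ZR sums overlapped those of ZRPF (5040 to 6910) and lay below those of PF (5370 to 6300). In ZR against ZD all 11 were lower and 6 were called, where 16.6% of all genes were called. In ZR against ZRPF 9 were lower, 2 were higher and 0 were called. Endothelium markers (12 of 13 above the filter) summed to 13100 to 14200 in ZR against 14400 to 16400 in ZD. They were not lower than in ZRPF (13000 to 13800) or PF (12900 to 14700), which overlapped ZR. Those of ependyma and tanycytes (7 of 11) summed to 5940 to 6240 in ZR against 6330 to 7200 in ZD. Here too ZR overlapped ZRPF (6090 to 6850) and PF (5600 to 6350). The part of these 3 lists in the *Adipor2* difference was not tested.

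In the other *Adipor2* probe sets the ZR mean was also the lowest of the 4, but no difference passed. Probe set 1390549_at had 143, 206, 176 and 178 in ZR rats and 180, 248, 178 and 174 in ZRPF rats, and 249, 220, 169 and 143 in ZD rats and 193, 208, 248 and 185 in PF rats, with overlap throughout. It differed by -0.14 ± 0.17 in ZR against ZRPF and by -0.13 ± 0.17 in ZR against ZD (95% intervals -0.51 to 0.22 and -0.49 to 0.23; limma's adjusted p = 0.952 and 0.649). Probe set 1395146_at, below the filter, had 83.9, 158, 155 and 126 in ZR rats against 186, 104, 97 and 166 in ZRPF rats, a difference of -0.07. As deviations from the group means, 1397519_at and 1390549_at correlated at -0.49 over the 16 arrays, whereas the 2 *Igf1r* probe sets correlated at 0.74. Among the 6 tested probe sets and the brightest of *Insr* and *Lepr*, correlations between different members lay between -0.46 and 0.49; they are descriptions over arrays that share their scaling.

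*Adipor1*, the other adiponectin receptor, was called in no comparison. Probe set 1388373_at had signals of 1813, 1919, 1917 and 1987 in ZR rats and 1921, 1839, 2236 and 2129 in ZRPF rats. It had 2076, 2005, 2048 and 1982 in ZD rats and 2130, 1832, 1910 and 2048 in PF rats. Neither zinc comparison passed, at -0.09 ± 0.07 in ZR against ZRPF (95% interval -0.23 to 0.06) and 0.04 ± 0.07 in ZD against PF (-0.11 to 0.18). ZRPF against PF gave 0.03 ± 0.07 (-0.11 to 0.18) and ZR against ZD -0.09 ± 0.07 (limma's adjusted p = 0.778 and 0.404).

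**Figure D4:**
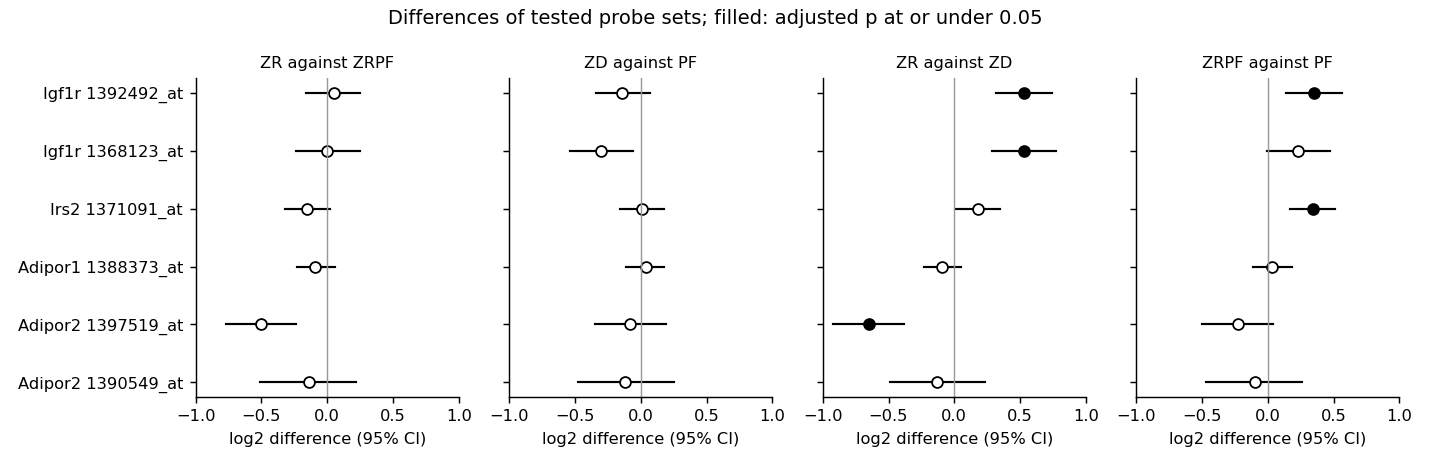
Log2 differences with 95% intervals of the 6 tested member probe sets in ZR against ZRPF, ZD against PF, ZR against ZD and ZRPF against PF; filled circles have an adjusted p at or under 0.05. The filled circles are *Igf1r* and *Irs2*, higher in the 16-day groups, and *Adipor2* 1397519_at, lower in ZR than in ZD.

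The ligands of these receptors were mostly below the filter. Mean signals over all arrays were 82.6 for *Ins1* and 20 for *Ins2*, the insulin genes, 3.23 for *Lep*, which encodes leptin, and 28.9 for *Adipoq*, which encodes adiponectin. *Igf1*, the ligand of *Igf1r*, was tested by 2 probe sets that disagreed: 1370333_a_at ran from 371 to 469 in ZRPF against 498 to 667 in PF, a difference of -0.48 ± 0.11 (limma's adjusted p = 0.00742), whereas 1388469_at gave 0.01 ± 0.15. *Igf2*, a growth factor of choroid plexus and meninges, gave 0.48 ± 0.31 in ZD against PF, -0.31 ± 0.31 in ZR against ZRPF and 0.27 ± 0.31 in ZRPF against PF (1367571_a_at; none past the threshold). Summed choroid plexus markers (10 of 16 on the array above the filter) ran from 9220 to 37800 in ZR, 10100 to 40500 in ZRPF, 11000 to 25000 in ZD and 10300 to 12100 in PF. *Igf2* is itself one of these markers, so the sum includes its own signal. The part of the other markers in the *Igf2* values was not tested.

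Of the insulin and IGF signalling list, 37 of 51 genes were tested, and in ZRPF against PF 2 were higher and 1 lower, where 15.4% of all 9278 genes were called. *Igfbp5*, a binding protein that holds IGFs outside cells, ran from 1690 to 2250 in ZRPF against 1070 to 1190 in PF (0.74 ± 0.09, limma's adjusted p = 1.95e-05). *Tsc2*, a brake on mTOR that Akt inactivates, was higher by 0.32 ± 0.08 (adjusted p = 0.00898), and *Igf1* was the 1 lower. The list's median difference was 0.03, against -0.01 over all genes. In ZR against ZD, 3 were higher and 2 lower, where 16.6% of all genes were called, and these genes are named after their values were seen. They were *Igfbp5* (0.67 ± 0.09), *Foxo4*, a FoxO factor (0.55 ± 0.13), and *Pik3ca*, a catalytic subunit of phosphatidylinositol 3-kinase (0.32 ± 0.09), and on the lower side the phosphatases *Ptprf* (-0.34 ± 0.08) and *Inppl1* (-0.32 ± 0.10). The list's median there was -0.05 against -0.02. In neither zinc comparison was any of the 37 called; the smallest p was that of *Igfbp2* in ZD against PF (0.49 ± 0.25, adjusted p = 0.657) and of *Foxo4* in ZR against ZRPF (0.39 ± 0.13, adjusted p = 0.927).

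The leptin signalling list, with 12 of 25 genes tested, gave no call in ZRPF against PF, where *Stat3*, the transcription factor that the receptor activates, differed by 0.60 ± 0.26 (limma's adjusted p = 0.125). In ZR against ZD 2 of the 12 were called, both lower, where 16.6% of all genes were called (8.42% lower), and they are named after their values were seen: *Leprotl1*, a relative of *Leprot* (-0.66 ± 0.15), which ran from 305 to 397 in ZR against 437 to 647 in ZD, and *Pias3*, an inhibitor of Stat3 (-0.31 ± 0.10). The list's median was -0.05 in ZR against ZD and -0.04 in ZRPF against PF, against -0.02 and -0.01 over all genes. None was called in the zinc comparisons. The smallest p in both was that of *Ptpn11*, a phosphatase that binds the activated leptin receptor, at -0.25 ± 0.09 in ZD against PF and -0.21 ± 0.09 in ZR against ZRPF (adjusted p = 0.503 and 0.927). *Cartpt*, whose hypothalamic transcript leptin raises, gave 0.32 ± 0.13 in ZD against PF (adjusted p = 0.565).

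The adiponectin and AMPK list, with 25 of 39 genes tested, gave 1 higher and 1 lower in ZRPF against PF, where 15.4% of all genes were called. *Paqr7*, a membrane progestin receptor of the same protein family as the adiponectin receptors, was higher by 0.41 ± 0.09 (limma's adjusted p = 0.00355). *Appl1*, an adaptor that binds the adiponectin receptors, ran from 1020 to 1330 in ZRPF against 1340 to 1540 in PF (-0.32 ± 0.09, adjusted p = 0.018). In ZR against ZD *Paqr7* was the 1 called of 25, higher by 0.36 ± 0.09, where 16.6% of all genes were called. No gene of the list passed in the zinc comparisons; *Acer2*, an alkaline ceramidase, had the smallest p in ZD against PF, with 320 to 367 in ZD against 406 to 633 in PF (-0.58 ± 0.15, adjusted p = 0.274). *Paqr9*, a further member of that family, had it in ZR against ZRPF (-0.51 ± 0.19, adjusted p = 0.927). The list's median was 0.05 in ZD against PF and -0.01 in ZR against ZRPF, against 0.02 and -0.01 over all genes.

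Genes that FoxO factors or fasting induce (13 of 18 tested) had no call in ZRPF against PF or in the zinc comparisons. Their median was -0.16 in ZD against PF, with 10 of 13 below 0, and -0.17 in ZR against ZRPF, with 8 of 13 below 0, where the medians over all genes were 0.02 and -0.01. *Pdk4*, a mitochondrial kinase that spares glucose, ran from 169 to 715 in ZD against 522 to 1340 in PF (-1.08 ± 0.41, limma's adjusted p = 0.533). *Txnip*, an inhibitor of glucose uptake, gave 0.32 ± 0.10 there (adjusted p = 0.401), and *Sesn1*, a sestrin that activates AMPK, had the smallest p in ZR against ZRPF (-0.25 ± 0.09, adjusted p = 0.927). In ZR against ZD, where 16.6% of all genes were called, 1 of the 13 was higher and 1 lower, *Cited2*, a transcriptional co-regulator (0.43 ± 0.08), and *Gadd45a*, a growth arrest gene (-0.48 ± 0.12), both named after their values were seen.

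The tested genes whose deviations from the group means over the 16 arrays were most like those of each member are given as a description, since arrays share their scaling and labelling. They are the highest correlations among all tested probe sets of a single gene, and such a choice by itself yields high values. For *Igf1r* 1392492_at they were *Csf1r* (Pearson r = 0.93), *Tssc4* (0.91) and *Mgst2* (0.89), and for *Irs2* they were *Plgrkt* (0.85), *Hus1* (0.83) and *Slc5a6* (0.81). *Insr* 1392043_at was most like *Atg4a* (0.89), *Hnrnpu* (0.89) and *Ogt* (0.86), and *Lepr* 1370605_s_at most like *Epha4* (0.84), *St3gal1* (0.83) and *Glra2* (0.79). *Adipor1* was most like *Angptl4* (0.85), *Dtnb* (0.85) and *Nop9* (0.84), and *Adipor2* 1397519_at most like *Ubac2* (0.82), *Cd59b* (0.81) and *Csad* (0.80).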

How the data were processed

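Members and gene lists were chosen with earlier results of these data known. The authors deposited a linear signal intensity for each probe set of each array, made with MAS5, per the submitters' processing notes (its version is not given in the sources used here); labelling used a 3'-primed kit, per the labels' protocols. The table held 31099 probe sets, 57 of them controls. Every array had the same mean signal without the top and bottom 2% (500.13 to 500.15), and medians of 156 to 172. Signals were taken as log2 with no further normalization, and the number of arrays limits the precision.

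Probe sets at or above the median mean log2 signal (15521) were fitted over all 16 arrays with limma (version 3.58.1, under R version 4.3.3), letting the prior variance follow the signal; adjusted p are Benjamini-Hochberg over these, with a threshold of 0.05. Single member differences were also tested with an exact two-sided permutation of 4 against 4 arrays. Replicates are separate rats. All member probe sets were named; of each pathway list, genes stood by their brightest tested probe set, up to 3 of smallest p per comparison could be named, and ligands were named whatever their values. Likeness used up to 3 genes per member by correlation of deviations from group means. Gene names came from the platform annotation, which gave 1 gene for 20826 probe sets (20758 of them matched to the current RefSeq gene table), several for 436 and none for 9780.

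Rat numbers were not used as pairs, as the labels do not name them as such. Deviations of ZRPF and PF rats of the same number (2, 4 and 6) correlated at 0.079, 0.020 and 0.035, none over 0.1. These are rats of different experiments, so the check does not cover the pair-feeding of PF with ZD or of ZRPF with ZR. The fit was tested on simulated data for ZRPF against PF. It recovered 94 of 100 changes of log2 1 but only 49 of 100 of log2 0.5, with 7 false calls among 150. Many changes of log2 0.5 were thus missed in that setting. The real ZRPF against PF called 2430 probe sets, ZD against PF 0 and ZR against ZRPF 1. The share recovered depends on how many probe sets change, so the simulated shares need not hold for the real comparisons. Alternatives were quantile normalization, median centring, no filter, the brightest 10347 probe sets, an offset of 32, no variance trend, only the arrays compared, a choroid plexus covariate, each array left out, ZD 8 and 9 left out, the replicate block and, chosen after seeing the data, the actin ratio as a covariate, rats 2, 4 and 6 alone and, for *Lepr*, covariates without the filter.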

Additional observations from a re-analysis of the deposited data

Results flagged for a closer look

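Of 64 sets of 4 signals (16 member probe sets in 4 groups), 4 held an array far from the other 3, where chance gives about 1 in 20. *Lepr* 1388232_a_at had a log2 signal of 5.47 in rat ZRPF 5, against 6.00 to 6.06 in the other ZRPF rats. *Lepr* 1369739_at had 2.97 in PF 6, against 4.14 to 4.36 in the other PF rats. *Lepr* 1371222_at had 0.75 in ZR 15, against 3.96 to 4.53 in the other ZR rats. *Adipor2* 1390549_at had 7.95 in ZRPF 4, against 7.44 to 7.49 in the other ZRPF rats. The 3 *Lepr* probe sets lie below the filter, and no probe set that was called in any comparison was among the 4.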

How the results depend on the processing

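Of the member values under the alternatives, 625 kept their direction and side of the threshold (or, for *Lepr* where it was not tested, moved by less than the replicate SD), 17 lost the call, 1 gained it and 22 changed sign, all 22 in differences that were not called; *Lepr* 1370605_s_at in ZRPF against PF moved to 0.84 with the offset of 32. With the actin ratio as a covariate, ZRPF against PF called 7 probe sets and ZR against ZD 17, with 0 members in each; *Igf1r* gave 0.22 (1392492_at, ZRPF against PF), 0.41 and 0.32 (ZR against ZD), *Irs2* 0.26, *Adipor2* 1397519_at -0.54 and, in the fit without the filter, *Lepr* 1370605_s_at 0.82 (ZRPF against PF) and 0.49 (ZR against ZD; adjusted p = 0.771 and 0.827). The choroid plexus covariate left 1493 probe sets and 1 member in ZRPF against PF (*Igf1r* 1392492_at 0.32, adjusted p = 0.0915), and median centring left 1 member (0.26). ZD against PF called 1 probe set without ZD 8 and 9. ZR against ZRPF called 0 with quantile normalization, no filter, the brightest 10347 probe sets, no variance trend, only the arrays compared or the actin covariate. Leaving out 1 array at a time gave 0 to 3 probe sets (3 without ZD 8) in ZD against PF, 0 to 9 (9 without ZRPF 6) in ZR against ZRPF and 0 to 1 in the difference between these changes, with 0 members in each. It gave 1681 to 2264 in ZRPF against PF (1 to 2 members) and 2028 to 2588 in ZR against ZD (3 to 4). *Igf1r* 1392492_at ran from 0.29 to 0.40 in ZRPF against PF and *Irs2* from 0.14 to 0.25 in ZR against ZD. The cause of these shifts was not tested.

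Signs changed as follows. *Irs2* in ZD against PF was -0.03 with centring, -0.01 without ZD 8 and 9, and -0.05 to 0.05 with 1 array left out. *Adipor1* was -0.01 (centring) and -0.02 (choroid covariate) in ZD against PF, and -0.05, -0.04 and -0.01 to 0.08 (1 array left out) in ZRPF against PF. *Adipor2* 1397519_at in ZD against PF ran from -0.15 to 0.01 with 1 array left out. *Adipor2* 1390549_at in ZD against PF was 0.18 without ZD 8 and 9, and -0.25 to 0.02 with 1 array left out; its difference between the changes was 0.02 (quantile), 0.03 (centring), 0.08 (choroid covariate), 0.01 (actin covariate) and -0.16 to 0.10 with 1 array left out.

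With a replicate block over rat numbers 2, 4 and 6, ZRPF against PF called 1085 probe sets and 0 members (*Igf1r* 1392492_at 0.31, adjusted p = 0.119; *Irs2* 0.26, adjusted p = 0.0987). The same 6 arrays without the block called 1305 and 0 (0.31 and 0.26, limma's adjusted p = 0.104 and 0.0676). What cost these calls was not tested. No paired analysis of the pair-feeding was run, as the labels name no pairs. ZD and PF share only 1 rat number and ZR and ZRPF none. Scanner signals over background were not analysed here, so dim members such as *Insr* and *Lepr* have no measured floor.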
